A study of Mus musculus with 80 samples.

Results

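Phase II conjugation enzymes attach a polar group to drugs, hormones and metabolites so that the product can be excreted. The genes described are those of 3 families whose symbols begin with Gsta, Gstk, Gstm, Gsto, Gstp, Gstt or Gstz and a digit (cytosolic glutathione S-transferases, GST, with the kappa-class gene), with Ugt1a, Ugt2a, Ugt2b or Ugt3a (UDP-glycosyltransferases, UGT) or with Sult1 to Sult5 (cytosolic sulfotransferases, SULT). Members had to reach 10 counts in 4 libraries, which 57 of the 64 genes with such symbols did, out of 78275 genes in the table. They are 23 GST, 18 UGT and 16 SULT genes. The rule used no comparison between groups. Just inside the count limit were Sult4a1, with 4 libraries and a highest count of 20, and Gsto2, with 7 libraries. Just outside were Ugt1a8, with 1 library and a highest count of 12, and Sult2b1, whose highest count was 9. All 57 members also passed the filter on low counts that preceded the tests of fasting and sex.

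The libraries came from whole livers of C57BL/6J mice, an inbred laboratory strain, 8 to 12 weeks old and housed in groups, which had been moved from a 12 h light and 12 h dark cycle to constant darkness. Control mice were fed ad libitum throughout, and fasted mice had their food removed at circadian time (CT) 10. Livers were taken every 4 h from CT8 to CT44 from 2 males and 2 females of each treatment at each time, which gave 80 libraries, 40 control and 40 fasted. At CT8 the fasted group was still fed, so that the times CT12 to CT44 correspond to 2 h to 34 h without food.

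Each family works with its own donor. GSTs transfer glutathione to electrophiles, UGTs transfer a sugar, in most cases glucuronic acid from UDP-glucuronate, and SULTs transfer sulfate from PAPS (3′-phosphoadenosine 5′-phosphosulfate). The liver is their main site in the body, and rodents of the 2 sexes are known to differ in several of them. Transcription factors known to act on these genes include NRF2, which answers electrophiles, the aryl hydrocarbon receptor, the nuclear receptors CAR, PXR and PPARα, and STAT5, which carries the growth hormone signal.

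Libraries held 25534901 to 59927771 counts on genes (median 42303883), of which the members took 0.409% to 1.11%. In 40 libraries the title and the detailed labels gave different sexes, and in 40 different treatments, so the titles were used. Xist and Ddx3y, which mark the sexes, went with the title in 80 of 80 libraries. The control CT8 female replicate 2 stands apart, with 31.3% of its counts on the ribosomal RNA gene Rn18s against a median of 0.101%. The fasted CT40 female replicate 2 and the fasted CT44 female replicate 1 were the highest fasted libraries for Sult1e1 and Sult1d1, and the first of them was the lowest fasted library for Gsta3 and for the summed GST members. Hepatocyte markers defined the samples, with a summed level of 68138 to 123879 CPM (counts scaled to a common library total) in control libraries of CT12 to CT44. They are here scaled between libraries by TMM, which evens out differences in composition.

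Most members lie in clusters on the chromosomes, and positions are given in GRCm38 with the GENCODE M21 annotation because the deposited tables, made on GRCm39, hold none. The 7 Gstm genes lie together on chromosome 3 between 107895821 and 108044894, and the 8 Ugt2 genes on chromosome 5 between 86889767 and 87424203. Beside the Ugt2 genes, between 87513339 and 87591594, lie Sult1b1, Sult1d1 and Sult1e1. The 8 Ugt1a genes span 88055388 to 88220002 on chromosome 1 and share their last exons, so that reads on those exons cannot be told apart. In addition 15 members in 6 groups have a near-identical copy among the members, for instance Gstp1 with Gstp2, Sult2a1 with Sult2a2 and Ugt2b38 with Ugt2b5, and their separate counts are uncertain. Where such copies were summed before the test, the direction of each sum is given beside the gene.

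To compare levels between genes, the median CPM over the 40 control libraries was divided by the kilobases of exon. Among the GSTs, Gstm1 led with 578 CPM per kilobase, before Gsta3 with 312 and Gstp1 with 248. Ugt2b5 led the UGTs with 266 CPM per kilobase, followed by Ugt2b36 with 211 and Ugt2b1 with 203. Sult1a1, a phenol sulfotransferase, led the SULTs with 189 CPM per kilobase, before Sult2a8, which sulfates bile acids, with 170 and Sult1d1 with 47.6. Control libraries ranged over 488 to 1403 CPM for Gstm1 and over 621 to 1747 CPM for Gsta3, so that the order of the leading genes within a family holds for medians and not for every library. The order also depended on sex. In control males the median was 504 CPM per kilobase for Gstp1, 348 for Ugt2b1 against 312 for Ugt2b5, and 244 for Sult2a8 against 156 for Sult1a1. In control females it was 48.8 CPM per kilobase for Gstp1, 108 for Ugt2b1 against 199 for Ugt2b5, and 271 for Sult1a1 against 144 for Sult2a8. Sult2a2, with 135 CPM per kilobase, and Sult3a1, with 99.3, stood above Sult1d1, with 60.8, in females.

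Summed over the family, GST transcripts had a median of 4138 CPM in the 36 control libraries of CT12 to CT44 (lowest 3132, highest 4888) and of 2915 CPM in the 36 fasted ones (1357 to 4827). The UGT sum had a median of 3336 CPM in controls (2474 to 4120) and of 2736 CPM in fasted mice (1610 to 4207). The SULT sum stood at 1248 CPM in controls (869 to 1754) and at 1304 CPM in fasted mice (831 to 1817). The ranges of the 2 treatments overlap in each family over the whole course. These sums were described and not tested, and in whole liver fewer cells of a type and less RNA per cell cannot be told apart.

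**Figure D1:**
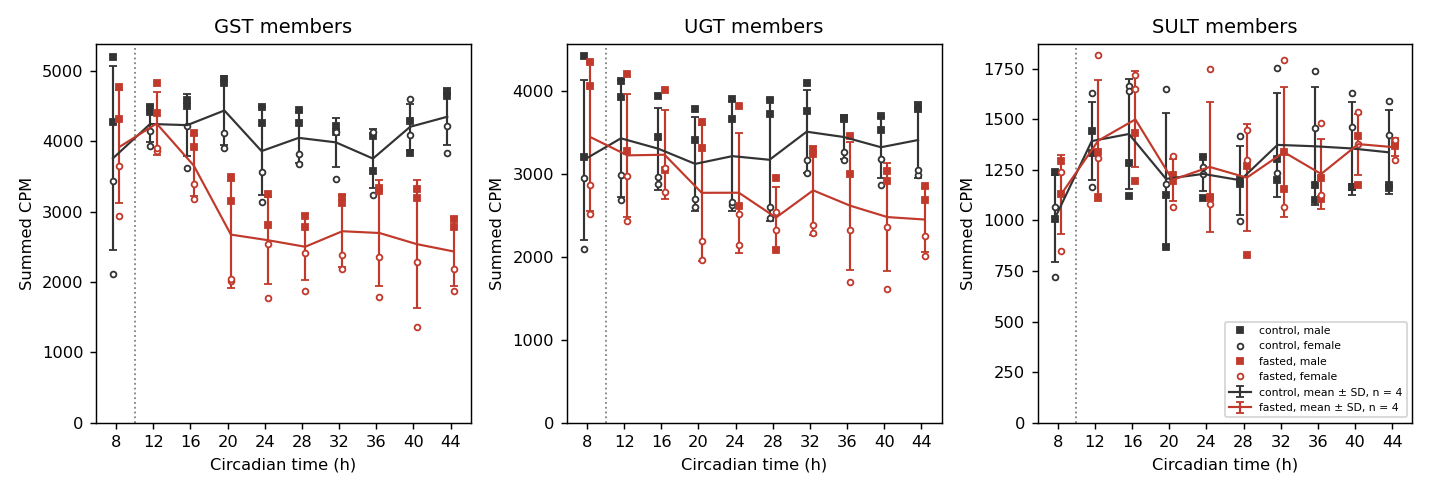
Summed CPM of the GST, UGT and SULT members (y axis) against circadian time in hours (x axis), with 1 point per library (squares for males, circles for females) and lines through the means ± SD of 4 libraries, control in black and fasted in red. The fasted GST sum leaves the control sum after CT16, whereas the SULT sums of the 2 treatments lie within 831 to 1817 CPM from CT12 to CT44.

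The first comparison asked how the members differed between the treatments, averaged over the times CT12 to CT44. Of the 57 members, 32 fell, 9 rose and 16 did not pass the test of edgeR's quasi-likelihood method at a Benjamini–Hochberg adjusted p under 0.05. Over all 21187 genes tested, 32.9% fell, 29.5% rose and 62.5% passed in either direction. The median log2 difference was -0.41 for the members and -0.02 for all genes. It was also -0.41 for the 49 members without a group of libraries at 0. By family, 17 of 23 GSTs fell and 2 rose, and 11 of 18 UGTs fell and 4 rose. Of the 16 SULTs, 4 fell and 3 rose. Groups at 0 left Sult2a3, Sult2a4, Sult2a5, Sult3a2 and Sult4a1 with SEs of 125 to 7691, so this test could not call them. In females 7 of 16 SULTs fell and 3 rose, against 58.4% of all genes called in females in either direction. Without the fasted CT40 female replicate 2 and the fasted CT44 female replicate 1, which was tried only once the data were known, the counts were again 32 and 9.

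Among the GSTs, all 7 Gstm genes of chromosome 3 and all 6 Gsta genes fell. Gstm3 fell most among members with a mean log2 CPM of at least 0, by 2.25 on the log2 scale (SE 0.10, adjusted p = 2.18e-23). In the controls of CT12 to CT44 its level was 21.0 CPM at the lowest, 37.7 at the median and 75.2 at the highest, and in the fasted libraries it was 1.73, 6.47 and 63.6 CPM. The groups overlap over the course, with 31.3 to 63.6 CPM in the fasted libraries of CT12 and up to 34.1 CPM at CT16. Gstm6 fell by 1.42 (SE 0.06), from a median of 66.2 CPM (39.3 to 92.9) to one of 24.9 CPM (4.42 to 75.4). Gsta3, the abundant alpha-class enzyme that conjugates aflatoxin epoxide in mice, fell by 1.01 (SE 0.08), from a median of 1373 CPM (925 to 1747) to one of 641 CPM (99.3 to 1388). Without the same 2 libraries it fell by 0.94 (SE 0.06). Gstp3 of the pi class fell by 0.92 (SE 0.07), with medians of 13.0 CPM in control and 6.00 CPM in fasted libraries. The most abundant GST per kilobase, Gstm1, fell by 0.57 (SE 0.06), from 850 CPM (488 to 1159) to 583 CPM (349 to 1092).

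Gsta1, Gsta2, Gsta5 and Gsta13 are near-identical copies of each other, and summed they fell by 0.70 (SE 0.14). Gstt2 and Gsto1 were the GSTs that rose. Gstt2, of the theta class, rose by 0.71 on the log2 scale (SE 0.05), from a median of 49.3 CPM (27.2 to 106) to 83.8 CPM (44.1 to 134). Gsto1, an omega-class enzyme with thiol transferase activity, rose by 0.39 (SE 0.03), from 78.5 CPM (58.5 to 99.8) to 97.7 CPM (78.8 to 146). Its neighbour in class, Gsto2, and Gstk1, Gstp2 and Gstt3 did not pass the test.

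All 8 Ugt2 genes of chromosome 5 fell, whereas the Ugt1a genes split. Ugt2b38 fell by 1.21 on the log2 scale (SE 0.11), from a median of 6.68 CPM (1.11 to 42.5) to 2.31 CPM (0.373 to 39.4). It shares a near-identical sequence with the abundant Ugt2b5, and their sum fell by 0.25 (SE 0.05). Ugt2b37 fell by 1.15 (SE 0.12), with medians of 4.37 CPM in control and 1.98 CPM in fasted libraries. Ugt2b1 fell by 0.99 (SE 0.08), from a median of 522 CPM (180 to 1042) to 255 CPM (23.97 to 1065). The wide ranges of Ugt2b1 and Ugt2b38 hold both sexes, which differ in these genes. Of the 8 Ugt1a genes, 3 fell, 2 rose and 3 did not pass the test. Ugt1a1, the bilirubin glucuronosyltransferase, rose by 0.33 (SE 0.05), from 234 CPM (133 to 380) to 283 CPM (139 to 431). Ugt1a9 rose by 0.24 (SE 0.05), although in females alone its difference was 0.04 (adjusted p = 0.68). Summed with its near-identical copy Ugt1a10 it rose by 0.24 (SE 0.05), and the sum of Ugt1a6a, Ugt1a6b and Ugt1a7c fell by 0.13 (SE 0.04). Both Ugt3a genes, which use other sugar donors than UDP-glucuronate, rose as well, Ugt3a1 by 0.18 (SE 0.04) and Ugt3a2 by 0.17 (SE 0.06).

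The SULTs that rose were 3 genes of the SULT1 family. Sult1e1, the estrogen sulfotransferase, rose by 2.56 on the log2 scale (SE 0.48, adjusted p = 7.93e-06), from a median of 0.250 CPM (0 to 1.41) to one of 0.927 CPM (0.0337 to 77.6). The highest fasted libraries were the CT40 female replicate 2 with 77.6 CPM and the CT44 female replicate 1 with 47.8 CPM, and the next highest had 6.15 CPM. Leaving both out gave a rise of 2.23 (SE 0.35), and without male replicate 1 of every group the rise no longer passed the test (adjusted p = 0.0537). Sult1d1, which sulfates catecholamines and other small phenols, rose by 0.74 (SE 0.09), from 119 CPM (68.9 to 193) to 203 CPM (92.7 to 608), and the 2 libraries just named were again its highest, with 608 and 572 CPM. Without them its rise was 0.66 (SE 0.08). Sult1a1 rose by 0.59 (SE 0.05), from 342 CPM (148 to 523) to 474 CPM (241 to 751). Sult1c2 fell by 1.48 (SE 0.08), from a median of 4.46 CPM (1.33 to 13.8) to 1.75 CPM (0.305 to 9.63). Sult2a8, Sult5a1 and Sult1b1 also fell, Sult2a8 by 0.86 (SE 0.11).

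Markers of other cells moved with fasting as well, where 32.9% of all genes fell and 29.5% rose. Of 8 Kupffer cell markers 7 fell and none rose, and their summed level was 248.7 to 846 CPM in control and 189 to 544 CPM in fasted libraries. Of 6 cholangiocyte markers 5 fell, with sums of 24.7 to 66.2 CPM in control and 6.78 to 50.7 CPM in fasted libraries. Stellate and fibroblast markers fell in 5 of 7 cases and rose in 1, with sums of 231 to 409 and 194 to 403 CPM. No marker of these 3 lists was at 0 in all libraries of a group. Among the hepatocyte markers 5 of 8 rose and 2 fell, with sums of 81281 to 142557 CPM in fasted libraries. The part of these shifts in the members' differences was not tested.

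The course of the fast shows when the members left the control level. At CT8, before food was removed, none of the 57 members passed the test by edgeR, DESeq2 or limma-voom, against 1.33% of all genes, and 1 member had an unadjusted p under 0.05. At CT12, after 2 h, again none passed by any of the 3 tools, against 1.60% of all genes, with 6 at an unadjusted p under 0.05. At CT16 the members called were 3, against 23.4% of all genes, namely Gstm4 and Ugt2b35, which were lower, and Sult1d1, which was higher. From CT20 the calls were many, with 25 members against 36.6% of genes. The calls then numbered 24 at CT24 (24.1% of genes), 24 at CT28 (21.0%), 22 at CT32 (17.7%), 25 at CT36 (26.8%), 28 at CT40 (39.9%) and 31 at CT44 (39.4%). Leaving out male replicate 1 or 2 of every group reduced the counts of CT20 to CT36 to between 7 and 15 members, and without female replicate 1 the counts at CT8 and CT16 were both 7. At each time from CT20 on, 17 to 25 of the called members were lower and 3 to 7 were higher in fasted mice.

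**Figure D2:**
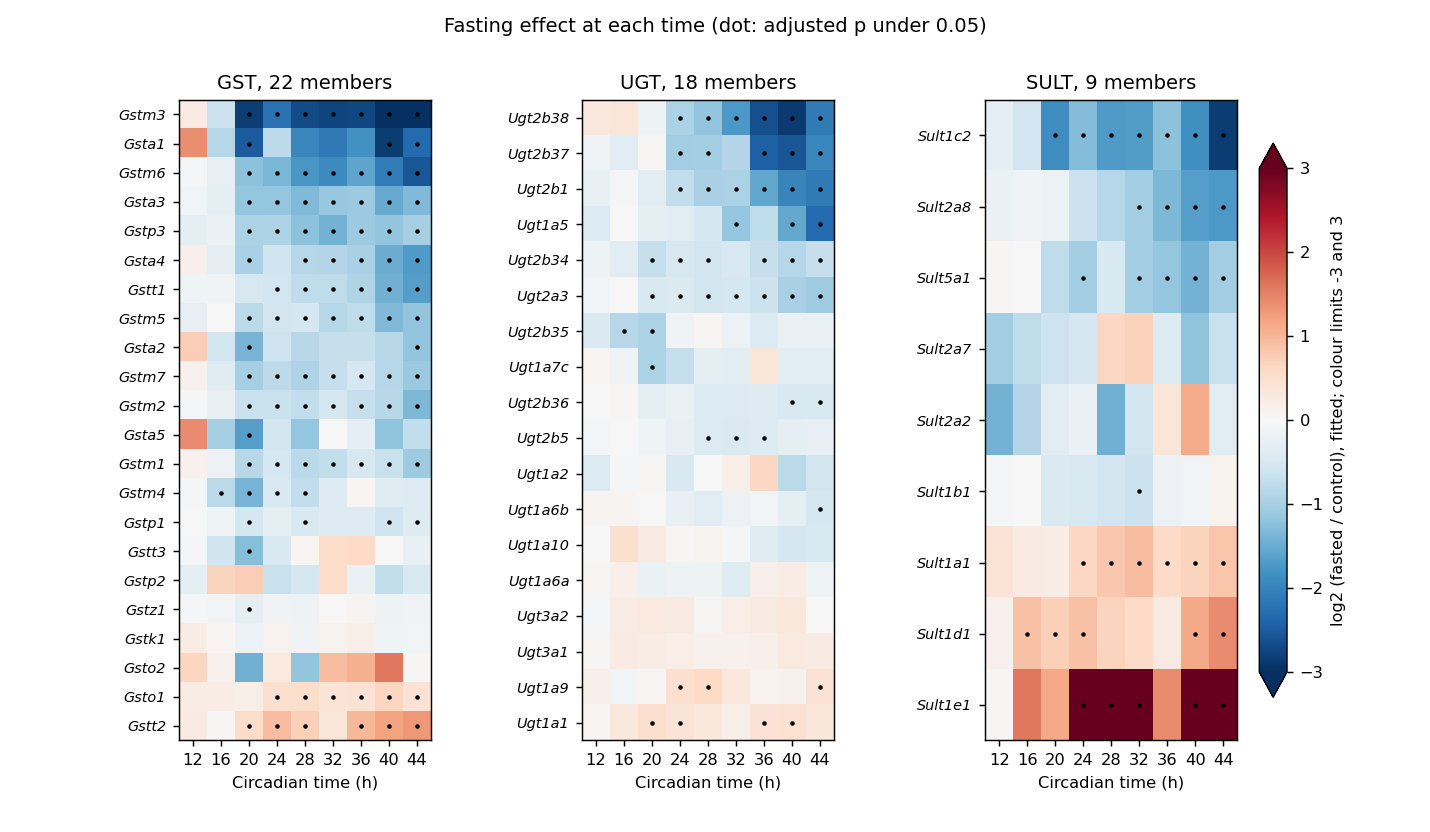
Fitted log2 ratio of fasted over control mice (colour) for 22 GST, 18 UGT and 9 SULT members (rows, ordered by the mean difference) at 9 circadian times in hours (columns), with a dot where the adjusted p at that time was under 0.05. The 8 members with a group of libraries at 0 are left out, and most dots lie on lower values from CT20 on.

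Gstm3 shows this course in single libraries. At CT16 the 4 fasted libraries had 34.1, 23.6, 15.8 and 15.8 CPM and the 4 control libraries 50.5, 26.4, 21.7 and 35.5 CPM, which overlap. At CT20 the fasted libraries had 12.9, 11.0, 3.81 and 2.18 CPM and the controls 44.1, 41.4, 53.6 and 30.5 CPM. The groups no longer overlapped there, nor at any later time, and at CT44 the fasted libraries had 3.70, 2.92, 2.85 and 2.17 CPM against 26.6 to 40.9 CPM in controls. Gsta3 dropped at the same step, from 1145 to 1266 CPM in the fasted libraries of CT16 to 518 to 916 CPM at CT20, with controls of 1437 to 1607 CPM at CT20.

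Ugt2b1 fell later. At CT20 its fasted males had 835 and 858 CPM and its control males 846 and 1029 CPM. By CT44 the fasted males were at 231 and 187 CPM against 911 and 1042 CPM, and the fasted females at 58.1 and 94.6 CPM against 328 and 292 CPM. Within each sex the treatments did not overlap at that time. Gstt2 stood higher in fasted mice at the end, with 101, 105, 101 and 91.9 CPM at CT44 against 39.2, 38.4, 42.2 and 41.4 CPM.

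**Figure D3:**
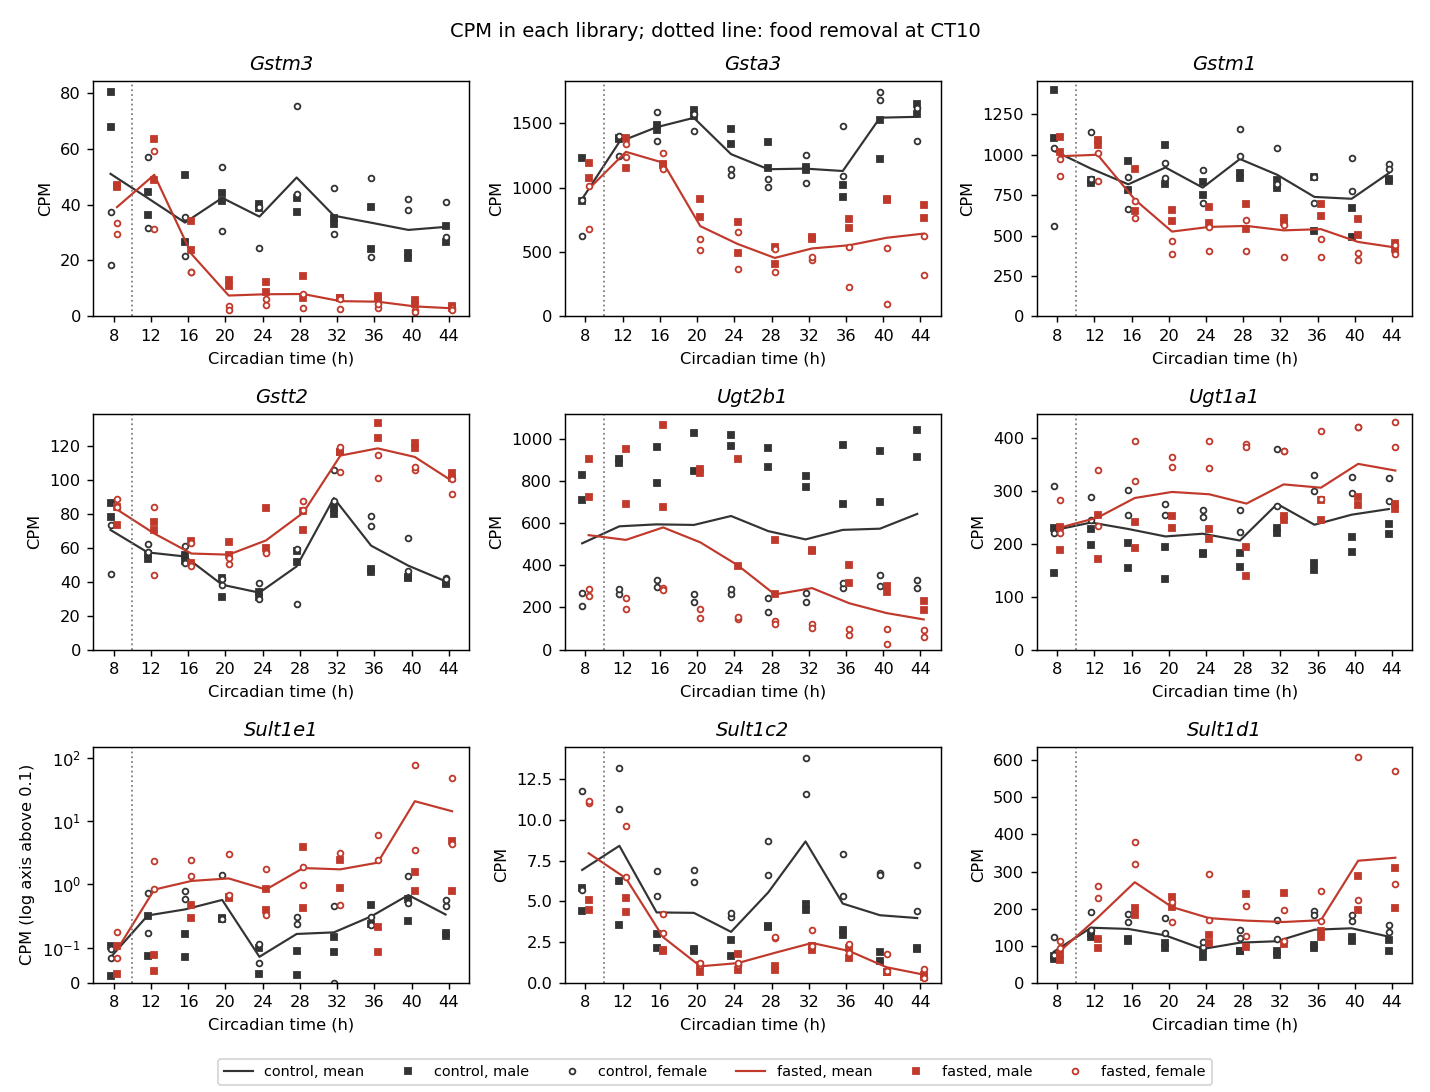
CPM (y axis, a log axis above 0.1 for Sult1e1) of 9 named members in each library against circadian time in hours (x axis), with squares for males, circles for females, lines through the means of 4 libraries, control in black and fasted in red, and a dotted line at food removal at CT10. Gstm3 reaches 2.18 to 12.9 CPM at CT20 and stays low, Ugt2b1 declines toward CT44, and Sult1e1 has 2 fasted female libraries at 77.6 and 47.8 CPM.

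Whether the fasting effect changed between the 9 times was tested jointly. The effects differed for 26 members (16 GST, 6 UGT and 4 SULT), against 33.7% of all genes. Gstm6 had the smallest adjusted p of 2.91e-09. Its difference was -0.06 at CT12, -1.75 at CT28 and -2.57 at CT44 on the log2 scale. The count fell to 7 members without male replicate 1 and to 5 without male replicate 2, settings under which the calls over all genes fell to 1647 and 1186 from 7130.

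Sex was the second axis of the study, and in control mice it separated some members more widely than fasting did. Of the 57 members, 24 were higher in females and 12 in males, against 20.6% and 18.6% of all genes. By family, 12 of 16 SULTs, 7 of 23 GSTs and 5 of 18 UGTs were higher in females, and 1 SULT, 2 GSTs and 9 UGTs were higher in males. For some SULTs higher in females, all control males stayed below the count minimum for members. Their highest control male count was 0 for Sult2a3 and Sult2a4, 2 for Sult2a5, 3 for Sult3a2 and 4 for Sult4a1. Such genes could become members only through other libraries, so the SULT tally is partly set by that minimum. The same holds for the 24 members higher in females. The 20 female and 20 male control libraries did not overlap for 13 members, 6 with all females above and 7 with all males above. Without the control CT8 female replicate 2, which is rich in ribosomal RNA, there were 9 and 7 such members. The share of all genes without such an overlap is not given here, so these counts describe the members alone.

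Among the SULT2A and SULT3A genes, sulfotransferases of steroids and amines, Sult3a1, Sult2a2 and Sult2a1 were read almost only in females. Sult3a1 had 26.9 CPM at the lowest, 115 at the median and 195 at the highest in control females, and 0 to 0.230 CPM in control males. Sult2a2 had 18.8 to 196 CPM in females, with a median of 100.2, and 0 to 0.397 CPM in males. Sult2a1, its near-identical copy, had 6.38 to 271 CPM in females and 0 to 0.479 CPM in males. In reads, the 20 male libraries together held 58 for Sult3a1, 75 for Sult2a2 and 106 for Sult2a1, against 106600, 99377 and 92216 in females. No male library overlapped a female one for these 3 genes. The sum of Sult2a1 and Sult2a2 was higher in females by 9.99 on the log2 scale (SE 0.42).

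Rarer members of the same clusters were also read more in females. Sult2a3 had 0 reads in all 20 male control libraries and 3465 in the 20 female ones, at least 52.4-fold higher against a floor of 3 counts per library. Sult2a4 also had 0 male reads and was at least 6.01-fold higher in females. The lowest control female library held 0 CPM for Sult2a3 and for Sult2a4, so the sexes overlapped in both. Sult2a5 had 3 male and 4785 female reads, a ratio of 1473 scaled for depth (95% exact interval 504 to 7147), and Sult3a2 had 4 and 6041 reads, a ratio of 1395 (545 to 5122). These intervals cover counting error only. Xist, which marks females, was at 835 CPM or more in female libraries and at up to 2.05 CPM in male ones. Whether reads of female libraries entered male ones was not tested. Sult2a7 was read in both sexes, with a difference of 2.40 on the log2 scale (SE 0.30), and its ranges of 0.452 to 11.9 CPM in females and 0.208 to 2.44 CPM in males overlapped. Sult2a8 went the other way and was higher in males, with 456 to 994 CPM in males and 237 to 590 CPM in females, a difference of -0.84 for females minus males (SE 0.15).

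Higher in males were the pi-class GSTs and several UGTs. Gstp1, the main pi-class enzyme, had 654 to 1033 CPM in control males and 61.6 to 115 CPM in control females, a log2 difference of -3.36 for females minus males (SE 0.08, adjusted p = 7.61e-35). Gstp2, its near-identical copy, had 6.47 to 30.4 CPM in males and 0.637 to 3.73 CPM in females. The sum of both copies differed by -3.37 (SE 0.08). Gstp3, of the same cluster on chromosome 19, was by contrast higher in females by 0.73 (SE 0.09). Ugt2b38 had 9.36 to 42.5 CPM in males and 1.11 to 3.99 CPM in females, and Ugt2b1 had 691 to 1042 CPM in males and 180 to 352 CPM in females. The sum of Ugt2b38 and Ugt2b5 was also higher in males, with a difference of -0.73 (SE 0.06). The summed markers of other cells also stood at different levels in the sexes. Kupffer cell sums were 248.7 to 515 CPM in male and 349 to 846 CPM in female control libraries, endothelial sums 252 to 309 and 309 to 373 CPM, and stellate and fibroblast sums 230 to 322 and 294 to 409 CPM. Erythroid sums were 197 to 287 CPM in males and 53.4 to 116 CPM in females, without overlap. In the control libraries of CT12 to CT44, Alas2 of this list ranged over 8.46 to 170 CPM and the globin gene Hbb-bs over 25.5 to 82.3 CPM. Single markers are not given by sex here, so the erythroid sum does not show that the globin genes differ. The part of the summed markers in the members' sex differences was not tested.

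**Figure D4:**
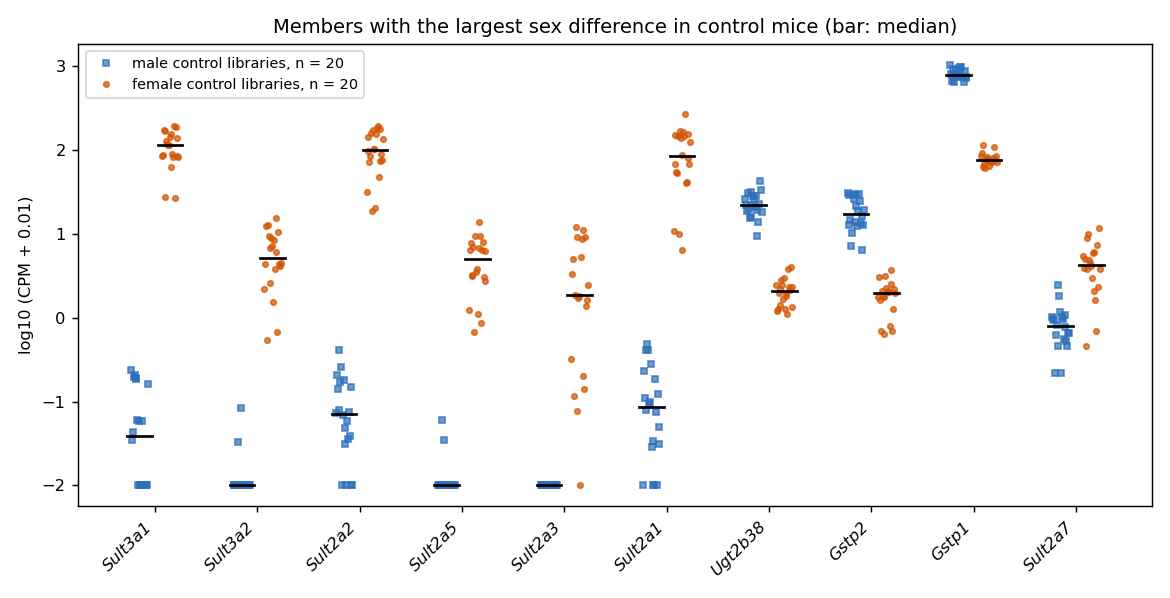
Log10 of CPM plus 0.01 (y axis) in each of the 20 male (blue squares) and 20 female (orange circles) control libraries for the 10 members with the largest sex difference (x axis), with black bars at the medians. The 6 leftmost genes, of the SULT2A and SULT3A families, lie near the floor in males, and Ugt2b38, Gstp2 and Gstp1 lie higher in males without overlap.

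Promoters of 47 members were found in RefSeq's set for GRCm38.p6, 57 promoters in all, each covering 250 bases before to 50 bases after a start. Of 5 short motifs searched on both strands, the core of the antioxidant response element that NRF2 binds, TGACNNNGC, was in 5.26% of the members' promoters (Gsta3, Gstm5 and Gstm7) against 12.4% of 32851 promoters of all genes. The core that the aryl hydrocarbon receptor binds, GCGTG, was in 17.5% against 32.4%, the STAT5 site TTCNNNGAA in 7.02% against 8.30%, and the nuclear receptor half-site AGGTCA in 21.1% against 16.3%. The E-box of the clock, CACGTG, was in none of the members' promoters against 7.15%, which says only that these letters are not in these windows. A match is a description and not a site of binding. The AGGTCA letters were found in 7 UGT, 3 SULT and 2 GST genes.

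The promoters of 5 members that lead the comparisons are printed from 5′ to 3′ on the strand of the gene, with matches to the motifs in capitals. Gstm3 had the largest fall among members with a mean log2 CPM of at least 0. Gsta3 was the most abundant GST in CPM, and Gstp1 and Sult3a1 mark the 2 directions of the sex difference. Sult1e1 had the largest rise on the condition named for Gstm3, which it met through its fasted libraries. Gstm3 lies at chr3:107969125-107969424 on the minus strand without a match, and Gsta3 at chr1:21240335-21240634 on the plus strand with the antioxidant response core at -121 from the start. The Gstp1 promoter at chr19:4037863-4038162, minus strand, has GCGTG at -13. The Sult3a1 promoter at chr10:33857472-33857771, plus strand, has a STAT5 site at -109, and that of Sult1e1 at chr5:87591562-87591861, minus strand, has the half-site, read as TGACCT on this strand, at -113.
Gstm3: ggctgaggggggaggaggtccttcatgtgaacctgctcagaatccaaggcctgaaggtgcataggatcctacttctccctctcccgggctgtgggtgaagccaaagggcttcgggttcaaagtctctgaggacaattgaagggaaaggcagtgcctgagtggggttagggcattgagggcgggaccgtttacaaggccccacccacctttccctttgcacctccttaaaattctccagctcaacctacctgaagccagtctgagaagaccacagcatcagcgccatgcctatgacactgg
Gsta3: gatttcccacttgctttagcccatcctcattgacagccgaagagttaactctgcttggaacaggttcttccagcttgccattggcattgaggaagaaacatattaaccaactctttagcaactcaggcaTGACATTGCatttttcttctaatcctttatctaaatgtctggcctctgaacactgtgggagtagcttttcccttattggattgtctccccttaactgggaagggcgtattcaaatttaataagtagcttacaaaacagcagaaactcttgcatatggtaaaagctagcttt
Gstp1: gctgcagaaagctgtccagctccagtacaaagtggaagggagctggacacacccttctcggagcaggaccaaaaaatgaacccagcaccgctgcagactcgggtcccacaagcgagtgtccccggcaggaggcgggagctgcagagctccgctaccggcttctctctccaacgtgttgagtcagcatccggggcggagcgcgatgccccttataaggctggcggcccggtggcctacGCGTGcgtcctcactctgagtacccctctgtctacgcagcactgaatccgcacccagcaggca
Sult3a1: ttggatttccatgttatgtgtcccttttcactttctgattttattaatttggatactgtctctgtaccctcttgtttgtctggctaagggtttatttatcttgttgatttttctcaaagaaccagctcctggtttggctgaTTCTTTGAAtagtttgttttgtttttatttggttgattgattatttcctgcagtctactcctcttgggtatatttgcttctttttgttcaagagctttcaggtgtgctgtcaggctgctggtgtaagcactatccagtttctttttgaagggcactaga
Sult1e1: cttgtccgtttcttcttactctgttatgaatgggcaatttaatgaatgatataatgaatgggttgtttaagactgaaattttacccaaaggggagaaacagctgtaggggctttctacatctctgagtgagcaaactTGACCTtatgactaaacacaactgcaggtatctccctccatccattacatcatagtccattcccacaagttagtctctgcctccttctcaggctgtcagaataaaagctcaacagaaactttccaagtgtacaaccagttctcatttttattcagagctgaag

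The next comparison asked whether fasting acted alike in the 2 sexes. In males alone within the same fit 22 members fell and 10 rose, against 46.3% of all genes called, and in females 36 fell and 7 rose, against 58.4%. Tested directly, the fasting effect differed between the sexes for 23 members. It was more negative in females for 22 of them and more positive for 1, Gstp1, against 7.02% and 5.35% of all genes. Of the 23, 20 fell in females, and 12 of these fell in males too. Without male replicate 1 the test called 2 members, and without male replicate 2 it called 4, where the calls over all genes fell from 2621 to 238 and 360. Without female replicate 1 or 2 there were 26 and 20. Without the 2 fasted female libraries that stood apart there were 15.

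Gstm6 had the smallest p. It fell by 1.81 on the log2 scale in females (SE 0.09) and by 1.03 in males (SE 0.09), a difference of -0.79 (SE 0.12, adjusted p = 4.01e-05). Its fasted females had 4.42 to 59.5 CPM and its fasted males 13.0 to 75.4 CPM, while the controls had 47.2 to 82.0 CPM in females and 39.3 to 92.9 CPM in males. Gstm3 fell by 2.79 in females and by 1.71 in males, a difference of -1.08 (SE 0.20). Gstm1, Gstm4 and Gstt1 had differences of -0.53, -0.50 and -0.67, and fell in both sexes. Gstt1, which acts on small halogenated compounds, thus went from a median of 268 CPM in control to 128 CPM in fasted females, and from 182 to 135 CPM in males.

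In Gstt3 the sexes moved in opposite directions. Its level fell by 0.68 on the log2 scale in females (SE 0.14, adjusted p = 2.74e-05) and rose by 0.38 in males (SE 0.14, adjusted p = 0.0208). Control females had a median of 68.1 CPM and control males one of 23.2 CPM, and the fasted medians were 44.2 and 28.3 CPM. Gstp1, the male-biased gene, fell by 0.60 in males (SE 0.07), from 777 to 497 CPM, and had a difference of -0.09 in females (SE 0.07), which did not pass the test. Summed with Gstp2 its effect differed between the sexes by 0.50 (SE 0.10). Sult1a1 rose in both sexes, by 0.85 in males and 0.33 in females. Ugt2a3 fell by 0.77 in females and 0.29 in males, and Sult1c2 by 1.86 and 1.10.

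**Figure D5:**
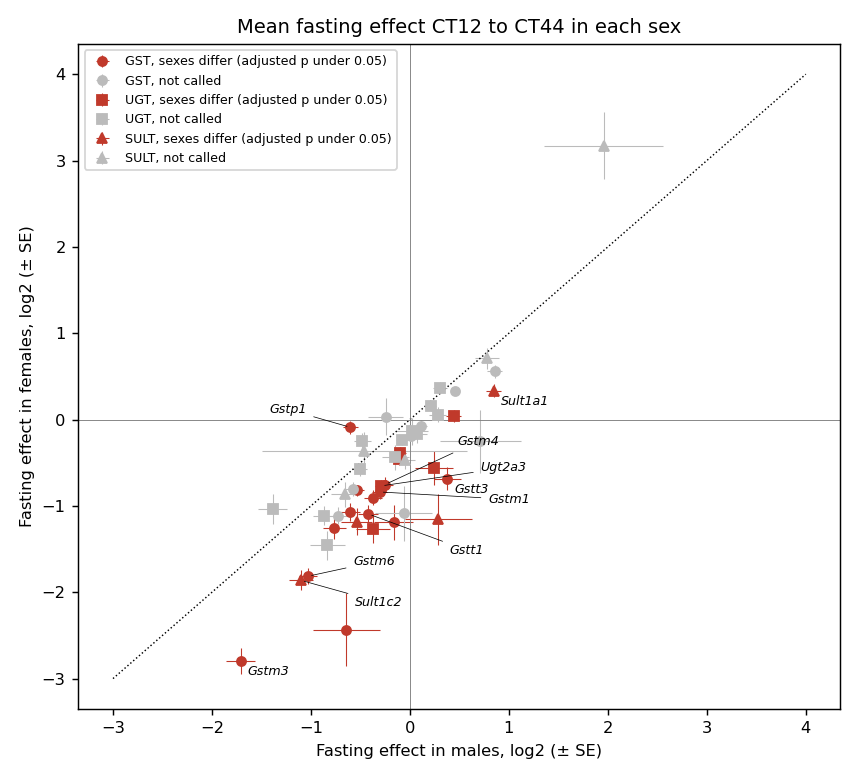
Fitted mean fasting effect from CT12 to CT44 in females (y axis) against that in males (x axis), on the log2 scale with SE as bars, for 49 members without a group of libraries at 0, where red marks members whose effect differed between the sexes and the dotted line marks equal effects. Most red symbols lie below the line, Gstm3 at -2.79 in females and -1.71 in males, and Gstp1 lies above it.

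The female-high SULT genes were low in reads in fasted males too, so their fasting effect was read in females. Sult2a7 fell by 1.16 in females (SE 0.30) and Sult2a5 by 1.67 (SE 0.35, adjusted p = 0.000139), from a median of 6.34 CPM (0.660 to 13.8) to 2.17 CPM (0 to 5.71). Sult3a1 with a difference of -0.29 (SE 0.22), Sult2a2 with -0.36 (SE 0.22) and Sult2a1 with 0.42 (SE 0.28) did not pass the test in females.

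Daily rhythms were tested in the 40 control libraries with a cosine of 24 h. Of the 57 members, 20 passed, 9 UGT, 6 GST and 5 SULT, against 41.8% of 20114 genes. The fitted peaks of 12 lay between CT0 and CT12 and those of 8 between CT12 and CT24. Among members with a mean log2 CPM of at least 0, Sult1e1 had the largest swing, 2.45 on the log2 scale from trough to peak. It was highest at CT16.3. That mean was taken over control and fasted libraries, and Sult1e1 met the condition through its fasted ones. Its control mean was 0.435 CPM in females and 0.185 CPM in males, and its control level did not exceed 1.41 CPM. Sult1c2 followed with 1.16 and a peak at CT8.79, then Gstt2 with 1.03 at CT9.71, Gstm4 with 0.81 at CT4.12 and Sult1d1 with 0.71 at CT15.3. For Gstt2 the mean of the 4 control libraries was 89.4 CPM ± 11.4 (SD, n = 4) at CT32 and 33.6 CPM ± 4.17 (SD, n = 4) at CT24. Gstm4 reached 48.4 CPM ± 5.19 (SD, n = 4) at CT28 and was at 25.9 CPM ± 4.47 (SD, n = 4) at CT16. The sampling covered fewer than 2 full cycles.

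The rhythm fitted beside a linear change over time differed between fasted and control mice for 8 members, against 23.2% of 20965 genes. They were Gstm1, Gstm3, Gstm4, Gstm6, Gstm7, Gstt3, Sult1c2 and Ugt1a9, so that 5 of the 7 Gstm genes were among them. Gstm7 had the smallest p (adjusted p = 0.000284), with a fitted swing of 0.54 that peaked at CT1.28 in controls, and one of 0.33 that peaked at CT8.39 in fasted mice. Gstt3 had 0.28 in controls and 1.23 in fasted mice, with a fasted peak at CT9.63. In Gstm4 the peak lay at CT4.07 in controls and at CT7.02 in fasted mice. In Gstm3 the fitted fasted peak was at CT11.4, but its fasted mean showed no such daily peak. It went from 50.6 CPM at CT12 to 7.47 CPM at CT20 and 2.91 CPM at CT44. An early drop of this kind is not linear, so the fit cannot tell its shape from a rhythm. The same holds for Gstm7, whose fasted mean went from 46.2 CPM at CT12 to 27.7 CPM at CT20 and 23.0 CPM at CT44. The fasted means of Gstm1 and Gstm6 also dropped early, from 999.6 and 64.7 CPM at CT12 to 525 and 31.5 CPM at CT20. That of Gstm4 rose again, from 12.7 CPM at CT20 to 34.2 CPM at CT32. Sult1c2 swung by 1.12 in controls and 1.99 in fasted mice. Without any filter on low counts 28 members were called, and without male replicate 1 or 2 the count was 3.

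Exon counts held 50 members that could be tested for a change in the use of exon bins, the pieces into which the deposited table divides each gene. Of these, 9 passed, against 14.3% of 13889 genes, and the count was 5 under a stricter filter on low counts, which tested 31 members, 5 without male replicate 2 and 4 without female replicate 2. The 5 with the smallest p were Sult1a1 (adjusted p = 1.29e-21 by edgeR), Gstt2 (3.42e-13), Gsta2 (5.02e-05), Gsto1 (0.000367) and Gstm7 (0.000525), and the others were Gsta3, Gstk1, Gstm6 and Gstz1. Bins are named here by their number in the gene, since the table holds no coordinates.

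The bins that moved held small shares of their genes. In Sult1a1, bin 14 took 0.668% ± 0.116 (SD, n = 36) of the gene's binned counts in control libraries and 0.420% ± 0.106 (SD, n = 36) in fasted ones. Bin 10 of Gstt2 went from 3.78% ± 2.21 (SD, n = 36) to 4.94% ± 1.42 (SD, n = 36), so that the groups overlap widely. Bin 13 of Gsta2 had 0.768% ± 0.398 (SD, n = 36) in control and 2.38% ± 1.59 (SD, n = 36) in fasted libraries, in a gene that has near-identical copies. In Gstm7 the share of bin 17 was 1.24% ± 0.243 (SD, n = 36) and 1.64% ± 0.352 (SD, n = 36). Relative to the rest of the gene, these bins differed by -0.47, 0.36, 1.03 and 0.28 on the log2 scale, and bin 12 of Gsto1 by 0.46.

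The donors and partners of the members were read from lists of other genes, beside the 32.9% of all genes that fell and the 29.5% that rose. For UDP-glucuronate supply, 5 of 7 genes fell and 2 rose, with Ugdh, which makes UDP-glucuronate, lower by 0.31 on the log2 scale (SE 0.06). For PAPS supply, 4 of 8 fell and 4 rose. Papss1, a PAPS synthase, fell by 1.16 (SE 0.05), from a median of 13.5 CPM to 6.04 CPM, and Papss2, the more abundant synthase, by 0.51 (SE 0.06). The list for glutathione supply also holds the microsomal glutathione transferases Mgst1, Mgst2 and Mgst3. Of its 9 tested genes 4 fell, with Mgst3 among them, and 3 rose. Gclc, the catalytic subunit of the enzyme that begins glutathione synthesis, fell by 0.38 (SE 0.07), and Gclm fell by 0.22 (SE 0.03). Gss and Gsr rose, by 0.21 (SE 0.05) and 0.26 (SE 0.03). Of the enzymes that break glutathione down, Chac1 rose by 1.07 (SE 0.19) and the more abundant Chac2 fell by 0.67 (SE 0.08). The medians of the 3 lists were -0.25, 0.00 and -0.08, beside -0.02 for all genes.

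Other conjugating enzymes fell in 7 of 10 cases and rose in 2, where 32.9% of all genes fell and 29.5% rose. Inmt, an amine N-methyltransferase, fell by 1.45 (SE 0.13), and Nat8 by 1.01 (SE 0.16). Of the 12 genes of conjugate transport, 5 rose and 5 fell. The exporters Abcb4 and Abcc3 rose by 1.15 and 0.76, Abcb11, the bile salt export pump, fell by 1.11, and the uptake carriers Slco1a4 and Slco1a1 moved apart, by 1.23 and -1.58. Of 7 deconjugating enzymes 3 rose and 3 fell.

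Of the 21 genes on the list of regulators, which also holds the enzyme Por, 11 rose and 6 fell. Over all genes 29.5% rose and 32.9% fell. Por, the electron donor of cytochrome P450, rose by 1.67 (SE 0.07), Nr1i3 (CAR) by 0.84 (SE 0.11), Nr1i2 (PXR) by 0.53 (SE 0.05) and Ppara by 0.64 (SE 0.07), while Ahr fell by 0.24 (SE 0.07) and Nfe2l2 (NRF2) by 0.21 (SE 0.05). Genes known to respond to these receptors rose in 9 of 14 cases and fell in 4. The PPARα targets Cyp4a14, Cyp4a10, Pdk4 and Cpt1a rose by 4.91, 3.63, 2.20 and 1.46. The aryl hydrocarbon receptor targets Cyp1a2 and Cyp1a1 fell by 1.62 and 1.04. Tiparp, another of its targets, rose by 0.20, and Nqo1, which also answers NRF2, by 0.22. Of the other NRF2 targets on the list, Srxn1 rose by 0.65 (SE 0.05), and Txnrd1, with a difference of 0.05 (SE 0.03), did not pass the test. Of the CAR targets on the list, Cyp2b10 rose by 1.92, whereas Cyp2c55 fell by 2.50 and Cyp2c29 by 0.90.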

How the data were processed

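Poly(A) RNA of 80 mouse livers was sequenced as stranded, paired-end libraries. The submitters' processing notes name Trimmomatic, HISAT2, DESeq2 and GRCm39, whereas the counting program and annotation are not given in the sources used here. The authors deposited raw counts per gene, a normalised signal that equals the counts divided by 1 factor per library, and raw counts per exon bin without coordinates. The count tables were used and the signal was not. Libraries were assigned by title. The sources used here do not describe the study's tests, so the tests were chosen here.

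Counts were filtered with filterByExpr, scaled by TMM and fitted with edgeR 4.0.16 in R 4.3.3 (quasi-likelihood, with a separate mean for every combination of treatment, time and sex). Calls were made at 0.05 after Benjamini–Hochberg adjustment over all genes tested. The scripts were tested on simulated data. Control rhythms were fitted with sex, and differences between rhythms with treatment by sex and a linear change over time. Exon usage was tested with diffSpliceDGE on the deposited exon counts, after leaving out 5 rows that name no bin and hold 8.28% to 25.9% of a column. In the exon counts, 3 columns of fasted CT40 were matched best by another library of that group, so fasted CT40 was fitted there as 1 mean without sex. The 40 replicate pairs all differed by more than sampling noise. Labels do not say more of the origin of a library than 1 mouse liver. Promoter sequences are RefSeq's for GRCm38.p6, and exon lengths and positions GENCODE M21's.

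The members and lists were chosen with earlier results of these data known. Named with values are the 3 most abundant members of each family, the 8 largest rises and falls with fasting, the 10 largest sex differences and the 5 largest rhythms among called members with a mean log2 CPM of at least 0, up to 10 members by smallest p for sex by fasting, 5 each for rhythm difference and exon usage, and list genes that changed by at least 1 on the log2 scale, except a gene that is not reported here. The mean log2 CPM was taken over control and fasted libraries together. Other genes were named after their values were seen. The alternatives were DESeq2 1.42.0, limma 3.58.1, other scalings and filters, an adjusted p of 0.01, a 1.5-fold minimum, single sexes, the replicate number as a block, and leaving out replicates, times and single libraries.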

Additional observations from a re-analysis of the deposited data

Results flagged for a closer look

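The summed CPM of each family was examined in the 20 groups of 4 libraries made by treatment and time, 60 groups in all, for a library whose gap to its nearest neighbour was large against the range of the group. For 4 libraries of a kind chance flags about 1 group in 20, and 2 were flagged. Each group held 2 males and 2 females, whose sums can differ, so that rate need not hold here. The control CT32 female replicate 1 had a GST sum of 3463 CPM against 4129 to 4220 CPM in the other 3 libraries, a gap of 0.880 of the range. The fasted CT24 female replicate 2 had a SULT sum of 1749 CPM against 1083 to 1115 CPM, a gap of 0.951 of the range.

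The fasting effect differed between the sexes by the test of the difference itself for 23 members. As females minus males on the log2 scale the differences were -0.79 for Gstm6, -1.06 for Gstt3, -1.08 for Gstm3, -0.48 for Ugt2a3, 0.51 for Gstp1, -0.51 for Sult1a1, -0.53 for Gstm1, -0.67 for Gstt1, -0.76 for Sult1c2 and -0.50 for Gstm4. The size of the fasting effect differed between times for 26 members, and the fitted rhythm differed between fasted and control mice for 8.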

How the results depend on the processing

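The counts of called members held within 1.5 times in 212 cases and moved in 36. With a minimum change of 1.5-fold, 4 members rose and 19 fell with fasting. At CT16 the count was 5 with DESeq2 size factors, 5 with at least 10 counts in every library, 5 with DESeq2 and 10 with the 8 libraries of that time alone. An adjusted p under 0.01 left 17 members for the fasting effect between times, 12 for sex by fasting and 3 for the rhythm difference. Under the stricter count filter 13 members were higher in control females and 5 were called for exon usage, and fewer members were tested there. Without a filter 28 were called for the rhythm difference. Without the fasted CT40 female replicate 2 and the fasted CT44 female replicate 1, chosen after the data had been seen, 15 were called for sex by fasting. The causes of the other shifts were not tested. The shares of all genes called under these settings are not given here, so the counts describe the members alone.

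Leaving out 1 replicate of a sex in every group leaves that sex with 1 library a group, which is assumed to vary like the others. The counts then ranged over 8 to 9 members that rose and 28 to 34 that fell, 0 to 7 at CT8, 0 to 1 at CT12, 1 to 7 at CT16, 13 to 27 at CT20, 7 to 28 at CT24, 10 to 26 at CT28, 9 to 26 at CT32, 12 to 24 at CT36, 22 to 35 at CT40, 23 to 29 at CT44, 5 to 31 between times, 20 to 25 higher in females and 9 to 14 in males, 2 to 26 for sex by fasting, 14 to 21 for the control rhythm, 3 to 9 for the rhythm difference and 4 to 7 for exon usage. The lowest counts from CT20 to CT36, between times and for sex by fasting came without male replicate 1 or 2. For single named members the call was the same in 705 cases and lost in 26, of which 12 came without male replicate 1 and 9 without male replicate 2, and no direction reversed.

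Over all genes tested, same-numbered libraries showed no common deviation. For 380 pairs of groups the correlations ran from -0.403 to 0.303 (median 4.65e-05), and 20 were over 0.1. The numbers are still not only names. At every time and treatment Xist was higher in male replicate 1 than in male replicate 2. Ddx3y was likewise higher in female replicate 1 than in female replicate 2. In controls at CT12 these values were 2.05 and 0.131 CPM for Xist and 0.135 and 0.0439 CPM for Ddx3y. The reason was not tested. With the replicate number as a block, 9 members rose and 32 fell, 23 were called for sex by fasting and 8 for the rhythm difference, and no other count moved by over 1.5 times. Depth limits Sult2a1 to Sult2a5, Sult3a1 and Sult3a2 in males, where at most 106 reads were counted over the 20 control libraries.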
